A study of Mus musculus with 28 samples.

Results

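The 8 genes described here encode Hox cofactors of the TALE homeodomain class: Meis1, Meis2 and Meis3, Pbx2, Pbx3 and Pbx4, and Pknox1 and Pknox2. They were chosen by name, as the rows of the RNA count table whose Ensembl identifiers map to these symbols, and they are 8 of the 55385 identifiers in the table. All 8 passed the filter on low counts, which kept 17789 genes. Their chromatin was read from the deposited peaks that lie in each gene or within 1 kb of its ends.

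P19 is an established mouse line of embryonal carcinoma cells, which are pluripotent and turn neural in retinoic acid. Per the labels, differentiating cells received 1 µM retinoic acid. It was given for 2 days to the day 2 cells, and for 4 days to both the day 4 and the day 8 cells. Those collected at day 4 were called neural stem and progenitor cells (NSPCs), and those replated in B27 medium and collected at day 8 were called neurons. The day 2 cells also carried retinoic acid and had received 1 µL of 10 mM MS-275, an inhibitor of class I histone deacetylases, or 1 µL of DMSO, its solvent, at day 1. Day 0 cells were undifferentiated P19 cells, and the labels give no DMSO for days 0, 4 and 8. Poly(A) RNA-seq had 2 libraries in each of the 5 groups. Native ChIP-seq of H3K9ac (acetylation of histone H3 lysine 9), H3K9cr (crotonylation of the same lysine) and H3K18la (lactylation of lysine 18) had 2 libraries a mark at day 4, and 1 library a mark for MS-275 and 1 for DMSO at day 2. ATAC-seq, which maps open chromatin, had 2 libraries at day 4. All samples come from 1 cell line, labelled in every group as an embryonal carcinoma cell, and the series describes its replicates as biological without giving how the cultures were kept apart.

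Meis and Pknox proteins bind Pbx proteins through a conserved amino-terminal domain, and the pair enters the nucleus and binds DNA together. Pbx proteins in turn bind Hox proteins through a short peptide next to the Hox homeodomain, which sharpens the sequence that a Hox protein selects. In the vertebrate hindbrain and spinal cord these complexes work with Hox proteins to set position along the head-to-tail axis, and retinoic acid is known to induce Meis genes in P19 cells.

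RNA totals lay between 18115738 and 19586107 estimated counts a library. Levels are given as CPM, counts divided by a TMM-adjusted library size, with no correction for transcript length, so they compare groups and not genes. Markers of pluripotent cells summed to 2342 to 2363 CPM at day 0, 125 to 131 CPM with MS-275, 49.7 to 52.0 CPM with DMSO, 3.31 to 4.94 CPM at day 4 and 55.3 to 65.5 CPM at day 8. Their sum was highest at day 0, while Nanog alone averaged 9.20 CPM at day 0, 12.6 CPM with MS-275, 6.52 CPM with DMSO, 0.74 CPM at day 4 and 7.79 CPM at day 8. Markers of neural progenitors summed to 336 to 339.5 CPM at day 0, 1289 to 1361 CPM at day 4 and 1423 to 1462 CPM at day 8. Those of neurons summed to 344 to 356 CPM at day 0, 1826 to 1892 CPM at day 4 and 2418 to 2650 CPM at day 8. Both sums were thus well above day 0 at day 4 and highest at day 8.

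Of the promoters in the RefSeq table for GRCm38.p6, 5 belong to members. Those of Meis1, Meis2 and Pbx2 are shown because the RNA and chromatin results below turn on these genes. Each is the 250 bases before the start in the table, 5′ to 3′ on the gene's strand, and capitals mark CpG dinucleotides. Meis1 is on the minus strand, with this stretch at chr11:19018970-19019219. Meis2 is on the minus strand, with its stretch at chr2:116064620-116064869. Pbx2 is on the plus strand, with its stretch at chr17:34592009-34592258.
Meis1: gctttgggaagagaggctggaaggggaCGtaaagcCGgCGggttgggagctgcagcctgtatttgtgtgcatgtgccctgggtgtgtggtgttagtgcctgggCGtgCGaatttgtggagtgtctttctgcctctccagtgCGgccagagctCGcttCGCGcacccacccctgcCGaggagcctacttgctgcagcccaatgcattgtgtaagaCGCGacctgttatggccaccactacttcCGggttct
Meis2: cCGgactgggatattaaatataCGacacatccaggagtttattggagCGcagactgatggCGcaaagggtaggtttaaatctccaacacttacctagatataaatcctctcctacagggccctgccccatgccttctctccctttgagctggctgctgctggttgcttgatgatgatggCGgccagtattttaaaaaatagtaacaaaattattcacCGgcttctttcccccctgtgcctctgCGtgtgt
Pbx2: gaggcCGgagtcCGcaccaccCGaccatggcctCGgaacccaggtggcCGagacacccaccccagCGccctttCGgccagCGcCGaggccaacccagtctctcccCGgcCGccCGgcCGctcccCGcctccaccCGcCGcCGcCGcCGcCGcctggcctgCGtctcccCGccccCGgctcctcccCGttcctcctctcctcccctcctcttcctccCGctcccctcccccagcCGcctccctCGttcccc
The Pbx2 stretch held 27 CpGs and 77.6% G or C, that of Meis1 13 CpGs and 59.6%, and that of Meis2 7 CpGs and 47.6%, beside medians of 6 CpGs and 52.4% over all 32851 promoters in the table. The Meis1 and Meis2 stretches lie inside the annotated gene spans, which continue upstream of the start used here. Each of the 5 promoters was searched on both strands for TGACAG, the motif of Meis and Pknox, for TGATTNAT, a motif of Pbx with Hox, and for AGGTCA, a motif of retinoid receptors. None of the 5 held any of these letters, while 15.9%, 2.82% and 14.0% of all promoters held the Meis, the Pbx with Hox and the retinoid receptor motif. TGACAG and the reverse complement of AGGTCA begin with the same letters, but no stretch can match both in full. No match says only that the letters are not in this window.

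Across neural differentiation, Meis1 and Meis2 were above 200 CPM from day 2 on, against under 3 CPM at day 0, while the other members differed from day 0 by 6.62-fold at most (Meis3 at day 8). At day 4 against day 0 all 8 members were called, 7 higher and 1, Pknox2, lower, where 72.3% of all tested genes were called (36.2% higher and 36.1% lower). Called means a Benjamini-Hochberg adjusted p under 0.05 in the edgeR quasi-likelihood test over all tested genes. The median log2 fold change of the members was 1.33, beside 0.01 over all genes tested. In bulk libraries, fewer cells of a type and less RNA per cell cannot be told apart.

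**Figure D1:**
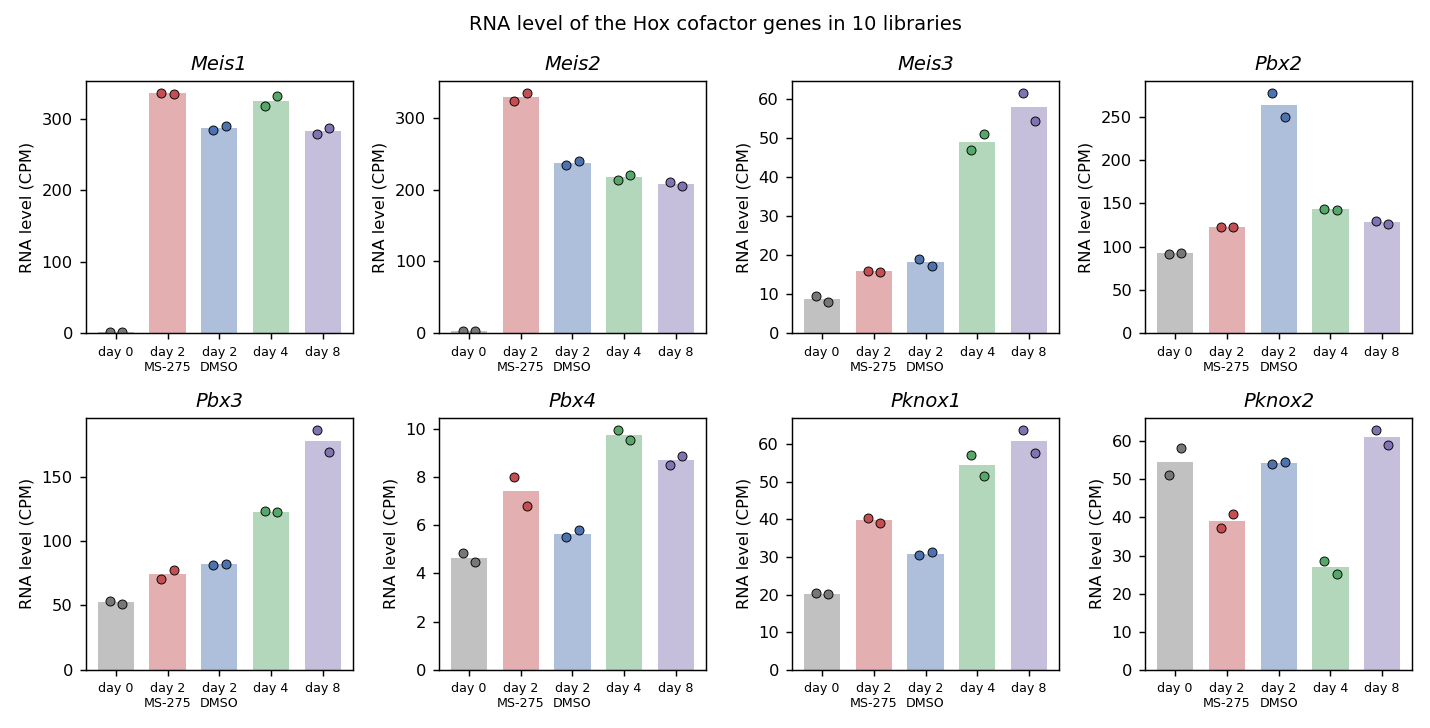
RNA level in CPM (linear axis from 0) of each gene in the 10 libraries; points are libraries and bars are means of 2. Meis1 and Meis2 sit under 3 CPM at day 0 and above 200 CPM in the other libraries, Pbx2 is highest with DMSO at day 2, and Pknox2 is lowest at day 4.

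Meis1 encodes the founding member of the Meis family. It lies at chr11:18880428-19019651. Its level was 1.05 and 0.897 CPM at day 0, 337 and 335 CPM with MS-275, 285 and 291 CPM with DMSO, 318 and 332 CPM at day 4, and 279.9 and 288 CPM at day 8. The day 0 libraries, with 20 and 16 counts, were far below all others, and the DMSO and day 8 libraries overlapped. Meis1 was higher at day 4 than at day 0 by 8.37 ± 0.09 on the log2 scale (SE), a 331-fold difference (edgeR adjusted p = 3.66e-19). Most of it was present by day 2, where DMSO stood 8.19 ± 0.09 above day 0 (edgeR adjusted p = 6.52e-19). In order of level, MS-275 and day 4 did not differ beyond their spread (edgeR adjusted p = 0.384, 95% interval of the day 4 minus MS-275 log2 difference from −0.14 to 0.05), and neither did DMSO and day 8 (edgeR adjusted p = 0.735). Day 4 exceeded DMSO by 0.18 ± 0.05 (edgeR adjusted p = 0.00423), a call lost without the first DMSO library, and day 8 was below day 4 by a log2 difference of −0.20 ± 0.05 (edgeR adjusted p = 0.00331).

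Meis2 encodes a close relative of Meis1 and lies at chr2:115861264-116067537. Its level was 2.26 and 2.41 CPM at day 0, 325 and 335 CPM with MS-275, 235 and 240.0 CPM with DMSO, 214 and 221 CPM at day 4, and 211 and 206 CPM at day 8. Both MS-275 libraries were above all others, and no other pair of groups overlapped. The log2 difference was 6.54 ± 0.08 for day 4 against day 0, or 92.9-fold (edgeR adjusted p = 9.36e-19), and 6.67 ± 0.08 for DMSO against day 0, or 102-fold (edgeR adjusted p = 1.31e-18). Day 4 was below DMSO by a log2 difference of −0.13 ± 0.05 (edgeR adjusted p = 0.0309), and this call was lost with other scaling, with no filter, with DESeq2 and with any of the 4 libraries left out. Day 8 and day 4 did not differ beyond their spread (edgeR adjusted p = 0.345, 95% interval from −0.16 to 0.03).

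Meis3, the third Meis gene, lies at chr7:16174012-16186510 and moved later. Its level was 9.56 and 7.85 CPM at day 0, 15.9 and 15.6 CPM with MS-275, 19 and 17.2 CPM with DMSO, 46.8 and 50.9 CPM at day 4, and 61.4 and 54.2 CPM at day 8. Each group stood apart from the next, with the step between day 2 and day 4 larger than that between day 0 and day 2. The log2 difference was 1.05 ± 0.12 for DMSO against day 0 (edgeR adjusted p = 8.26e-07) and 1.43 ± 0.10 for day 4 against DMSO (edgeR adjusted p = 1.83e-09). Day 8 against day 4 gave 0.24 ± 0.09 (edgeR adjusted p = 0.0384), a call lost without either day 4 library, without the first day 8 library and with DESeq2.

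Pbx2 encodes a broadly expressed partner of Meis and Hox proteins and lies at chr17:34592259-34597400. Its level was 91.5 and 92.8 CPM at day 0, 122 and 123 CPM with MS-275, 278 and 251 CPM with DMSO, 144 and 143 CPM at day 4, and 129.6 and 127 CPM at day 8. Both DMSO libraries at day 2 were above every other library. Pbx2 was 2.87-fold higher with DMSO than at day 0 (log2 1.52 ± 0.06, edgeR adjusted p = 7.53e-13), and lower at day 4 than with DMSO by a log2 difference of −0.88 ± 0.06 (edgeR adjusted p = 6.52e-10). It still stood 0.64 ± 0.06 above day 0 at day 4 (edgeR adjusted p = 3.47e-08). The log2 difference of −0.16 ± 0.06 for day 8 against day 4 (edgeR adjusted p = 0.0312) was lost in the fit of the 4 libraries alone, without either day 4 library, without the second day 8 library and with DESeq2. In order of level, day 8 and MS-275 did not differ beyond their spread (edgeR adjusted p = 0.311).

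Pbx3, at chr2:34171457-34372045, encodes a Pbx protein with a known role in the brainstem. Its level was 53.2 and 51.4 CPM at day 0, 70.7 and 77.8 CPM with MS-275, 81.5 and 82.4 CPM with DMSO, 124 and 122 CPM at day 4, and 187 and 169 CPM at day 8. No 2 groups overlapped, and day 8 was the highest. The log2 difference was 1.23 ± 0.07 for day 4 against day 0 (edgeR adjusted p = 4.64e-11) and 0.53 ± 0.06 for day 8 against day 4 (edgeR adjusted p = 3.7e-06).

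Pbx4, at chr8:69832476-69872292, encodes a Pbx protein best known from the testis in mouse, and had 80 to 190 counts a library. Its level was 4.83 and 4.49 CPM at day 0, 8.02 and 6.82 CPM with MS-275, 5.50 and 5.80 CPM with DMSO, 9.97 and 9.55 CPM at day 4, and 8.53 and 8.90 CPM at day 8. Pbx4 was higher at day 4 than at day 0 by 1.07 ± 0.16 on the log2 scale (edgeR adjusted p = 1.7e-05). DMSO did not differ beyond the spread from day 0 (edgeR adjusted p = 0.169), day 4 exceeded DMSO by 0.79 ± 0.16 on the log2 scale (edgeR adjusted p = 0.000376), and day 8 did not differ from day 4 beyond the spread (edgeR adjusted p = 0.42).

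Pknox1 encodes Prep1, a Pbx partner expressed in most tissues, and lies at chr17:31564722-31607693. Its level was 20.3 and 20.1 CPM at day 0, 40.3 and 39.1 CPM with MS-275, 30.6 and 31.2 CPM with DMSO, 57.2 and 51.5 CPM at day 4, and 63.8 and 57.6 CPM at day 8. Levels were higher at each later day, though the day 8 libraries came close to those of day 4. The log2 difference was 0.61 ± 0.09 for DMSO against day 0 (edgeR adjusted p = 1.27e-05), 0.82 ± 0.08 for day 4 against DMSO (edgeR adjusted p = 1.69e-07) and 0.16 ± 0.08, not called, for day 8 against day 4 (edgeR adjusted p = 0.109).

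Pknox2 encodes Prep2, the more tissue-restricted Pknox protein, and lies at chr9:36890979-37147342. It was the only member below day 0 at day 4. Its level was 51.1 and 58.2 CPM at day 0, 37.1 and 41.0 CPM with MS-275, 54.0 and 54.5 CPM with DMSO, 28.6 and 25.2 CPM at day 4, and 63.1 and 59.1 CPM at day 8. Day 0 and DMSO overlapped, day 4 was lowest, and day 8 stood slightly above day 0. The log2 difference was −1.02 ± 0.09 for day 4 against day 0 (edgeR adjusted p = 2.26e-08) and 1.18 ± 0.09 for day 8 against day 4 (edgeR adjusted p = 1.73e-08). Day 8 and day 0 did not differ beyond their spread (edgeR adjusted p = 0.0917, 95% interval of the log2 difference from −0.0029 to 0.33).

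By step, 6 members were called for DMSO at day 2 against day 0, all of them higher, where 64.6% of tested genes were called with 32.4% higher and 32.2% lower. Day 4 against DMSO had all 8 called, 5 higher and 3 lower (Meis2, Pbx2 and Pknox2), where 61.2% of tested genes were called, 30.6% in each direction. Day 8 against day 4 had 5 called, 3 higher (Meis3, Pbx3 and Pknox2) and 2 lower (Meis1 and Pbx2), where 41.5% were called, 21.7% higher and 19.8% lower. Day 8 against day 0 had 7 called, all higher, where 75.2% were called, 38.1% higher and 37.1% lower. Day 8 against DMSO had 6 called, 4 higher (Meis3, Pbx3, Pbx4 and Pknox1) and 2 lower (Meis2 and Pbx2), where 65.9% were called, 32.9% higher and 33.0% lower. These comparisons share libraries and are not independent of each other.

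**Figure D2:**
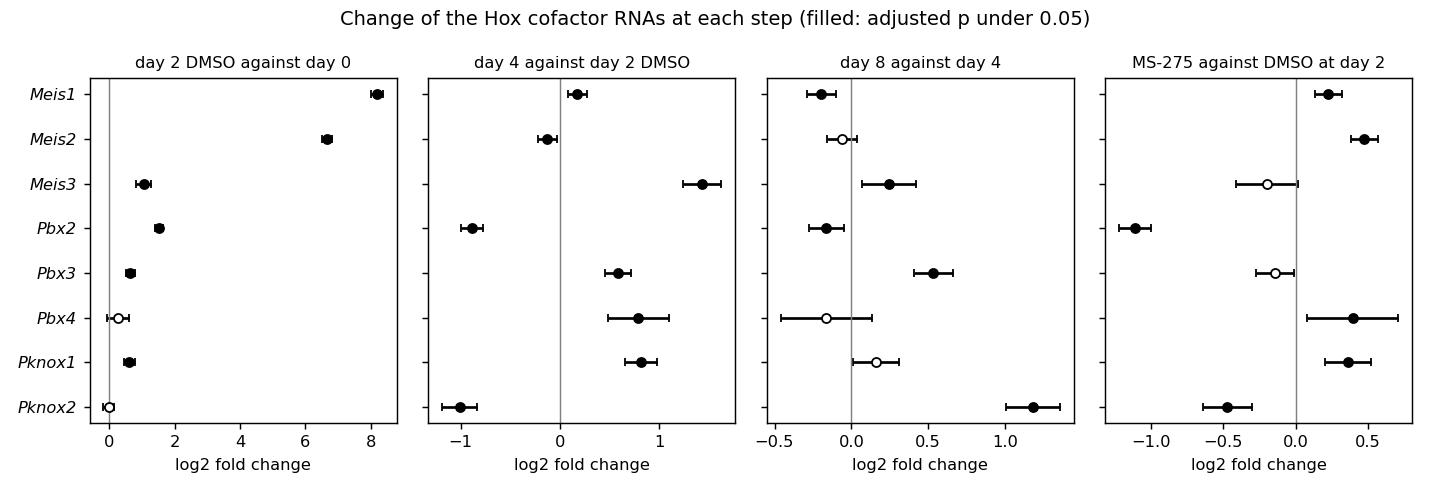
Log2 fold change of each gene with its 95% interval for 3 steps of the time course and for MS-275 against DMSO, each on its own axis; filled points have an edgeR adjusted p under 0.05. Meis1 and Meis2 lie above 6 in the first step and within 0.5 of 0 in the others, while Pbx2 lies below 0 in every panel but the first.

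Markers of fibroblasts and mesenchyme moved with the later groups: all 7 markers in the list were in the table, and they summed to 38.5 to 46.8 CPM at day 0, 519.8 to 565 CPM with MS-275, 40.3 to 41.7 CPM with DMSO, 787 to 899 CPM at day 4 and 1194 to 1245 CPM at day 8. At day 0, 1 of the 7 markers was at 0 in each library, and none was at 0 in the other groups. Their part in the levels of the members was not tested.

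Members differed in direction with the inhibitor of class I deacetylases. With MS-275 against DMSO at day 2, 6 members were called, 4 higher (Meis1, Meis2, Pbx4 and Pknox1) and 2 lower (Pbx2 and Pknox2), where 63.3% of tested genes were called, 31.9% higher and 31.4% lower. The median log2 fold change of the members was 0.04, beside 0.01 over all genes tested. Set against day 0, MS-275 had all 8 called, 7 higher and 1 lower (Pknox2), where 69.6% of genes were called, 37.3% higher and 32.2% lower. Day 4 against MS-275 had 7 called, 5 higher and 2 lower (Meis2 and Pknox2), where 71.7% were called, 35.0% higher and 36.7% lower. Day 8 against MS-275 had 6 called, 4 higher and 2 lower (Meis1 and Meis2), where 73.2% were called, 36.6% higher and 36.7% lower.

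Pbx2 had 122 and 123 CPM with MS-275, against 278 and 251 CPM with DMSO. Both MS-275 libraries were below both DMSO libraries, by a log2 difference of −1.11 ± 0.06 (edgeR adjusted p = 6.93e-11). With MS-275 the gene was nonetheless above day 0 by 0.41 ± 0.06 (edgeR adjusted p = 8.97e-06).

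Pknox2 had 37.1 and 41.0 CPM with MS-275, against 54.0 and 54.5 CPM with DMSO, a log2 difference of −0.47 ± 0.09 (edgeR adjusted p = 0.000155). Meis2 had 325 and 335 CPM with MS-275, against 235 and 240.0 CPM with DMSO, a log2 difference of 0.47 ± 0.05 (edgeR adjusted p = 2.59e-07). In both genes the libraries of the treatments did not overlap. Meis1 differed less, by 0.22 ± 0.05 (edgeR adjusted p = 0.000633), and Pknox1 by 0.36 ± 0.08 (edgeR adjusted p = 0.00105). Pbx4 differed by 0.39 ± 0.16 (edgeR adjusted p = 0.0425), a call lost with no filter, with DESeq2 and without either DMSO library or the first MS-275 library. Meis3 (−0.20, 95% interval −0.41 to 0.01, edgeR adjusted p = 0.12) and Pbx3 (−0.14, 95% interval −0.27 to −0.01, edgeR adjusted p = 0.0734) did not pass, and Pbx3 passed without the second MS-275 library (−0.22, edgeR adjusted p = 0.0274).

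Marker lists of other states moved with MS-275 too. Of the 7 pluripotent markers, the 6 tested were all higher with MS-275, where 1 (Zfp42) was at 0 in both libraries, while with DMSO 1 or 2 (Zfp42, and Dppa4 in 1 library) were at 0. Of the 7 fibroblast and mesenchyme markers 5 were higher and 1 lower, of the 7 neural progenitor markers 2 were higher and 5 lower, and of the 6 neuron markers tested 1 was higher and 3 lower. The neural progenitor sum was 744 to 800.0 CPM with MS-275 and 856 to 862 CPM with DMSO, and the neuron sum 224 to 224.8 CPM with MS-275 and 209 to 230.3 CPM with DMSO. Of the 6 astrocyte and oligodendrocyte markers tested 3 were higher and 1 lower, with a sum of 84.7 to 84.9 CPM with MS-275 and 63.9 to 68.0 CPM with DMSO. Of the 5 cardiac and smooth muscle markers tested 4 were higher and 0 lower, with a sum of 32.5 to 33.5 CPM with MS-275 and 15.6 to 17.9 CPM with DMSO. Of the 4 endothelium markers 2 were higher and 1 lower, with a sum of 12.1 to 12.8 CPM with MS-275 and 7.12 to 8.30 CPM with DMSO. The 1 blood marker tested was not called, and the 4 in the list summed to 2.14 to 2.28 CPM with MS-275 and 1.19 to 1.57 CPM with DMSO. The part of these 8 lists in the results of the members was not tested.

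The partners of these cofactors were followed as lists. Of the 23 Hox genes of paralog groups 1 to 8, 23 were higher at day 4 than at day 0, 2 were higher and 15 lower at day 8 than at day 4, and 8 were higher and 12 lower with MS-275 than with DMSO (median log2 −0.43). The 16 Hox genes of groups 9 to 13 summed to 123 to 125 CPM with MS-275, against 10.8 to 11.1 CPM with DMSO. Their sum was 1308 to 1380 CPM at day 4 and 438 to 502 CPM at day 8. Hoxb9 alone averaged 87.6 CPM with MS-275, 9.14 CPM with DMSO and 1317 CPM at day 4. All 9 of these genes that were tested were higher with MS-275 than with DMSO. The other TALE genes, the Irx, Mkx and Tgif genes, had 4 higher and 3 lower of 9 at day 4 against day 0, and 1 higher and 7 lower with MS-275 against DMSO (median log2 −1.16). Of 10 partners and co-regulators of these proteins, 4 were higher and 4 lower at day 4 against day 0, and 2 were higher and 5 lower with MS-275 against DMSO (median log2 −0.24). Among those lower was Crebbp, a histone acetyltransferase that Pbx and Hox proteins recruit, with 75.7 ± 0.41 CPM with MS-275 and 161.9 ± 10.5 CPM with DMSO (SD, n = 2 each). Of 8 genes induced by retinoic acid, 8 were higher at day 4 against day 0, and 1 was higher and 5 lower with MS-275 against DMSO (median log2 −0.68), while Meis1 and Meis2, known retinoic acid targets, were higher with MS-275.

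Over the 10 libraries, Meis1 and Meis2 followed each other most closely among the members, with a Pearson r of 0.997 for CPM. Meis3 and Pbx3 had r = 0.975, and Pbx4 and Pknox1 had r = 0.9545. Pknox2 ran against or apart from the rest, with r between −0.562 and 0.035. Among 10911 genes with at least 5 CPM on average, those most like Meis1 were Hoxaas2 (r = 0.999), Col11a1 (0.998) and Hoxb4 (0.997), and those most like Meis2 were Meis1, Hoxaas2 and Sfi1 (0.996). Tmem163 was most like Meis3 (r = 0.999), Ank1 most like Pbx3 (0.994), Brms1l most like Pbx4 (0.993), Mapk8ip3 most like Pknox1 (0.996) and Lrrc8c most like Pknox2 (0.929). These correlations are descriptions over 10 libraries that share 5 groups, so much of each rests on the group means. For Meis1, Meis2 and Hoxb4, r spans the gap between day 0 (means of 0.97, 2.34 and 0 CPM) and the far higher later groups. Among the later groups they could differ. Meis1 averaged 336 CPM with MS-275 and 288 CPM with DMSO, while Hoxb4 averaged 145 CPM with MS-275 and 207 CPM with DMSO.

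The chromatin of these genes was marked throughout. At day 4 all 8 members had a peak of H3K9ac, of H3K9cr and of H3K18la in both libraries, where 90.2%, 88.8% and 77.9% of tested genes with RefSeq ends had one for H3K9ac, H3K9cr and H3K18la. An ATAC peak in both libraries was found at 7 members, where 75.5% of genes had one, and Pbx2 had one in the second library only. At day 2 all 8 members had an H3K9ac peak with MS-275 and with DMSO, where 93.2% of genes had one with MS-275 and 88.5% with DMSO. The same held for H3K9cr, where the shares of genes were 92.4% with MS-275 and 88.3% with DMSO. H3K18la peaks lay at 7 members with MS-275, where 41.9% of genes had one, and at all 8 with DMSO, where 81.1% did. Pknox1 was the member without one. These counts sit near the share of all genes, apart from H3K18la with MS-275. There 5 of the 8 had a peak with a −log10 q-value of at least 5, where 25.8% of genes had one, and 5 had a peak within the gene itself, where 33.6% of genes did. Gene length was not matched in these shares, and a longer gene has more room for a peak. Meis1, Meis2, Pbx3 and Pknox2, with windows of 141224 to 258364 bases, held 13 to 53 H3K18la peaks with MS-275. The other members, with windows of 7142 to 44972 bases, held 0 to 2. The day 2 ChIP has 1 library a condition and so no replicate check, and peak lists give no read depth.

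Meis1 lay under some of the widest peaks of each histone mark list. The peak over its start was 22561 bases wide for H3K9ac with MS-275 and 12052 bases with DMSO. At day 4 it was 18323 and 18253 bases wide. The widest H3K9ac peak at the gene ranked 15 by width among 84418 peaks with MS-275, 9 among 26555 with DMSO, and 10 of 38703 and 11 of 37578 at day 4. H3K18la at the start was 17800 and 19466 bases wide at day 4, rank 7 in both lists, and 11260 bases with DMSO, rank 3 of 36382. The authors' fold enrichment over local background, which ranks peaks within a list, placed the H3K9ac peak of Meis1 at rank 107 with MS-275, 22 with DMSO, and 55 and 4 at day 4.

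Meis2 had an H3K9ac peak of 10084 bases over its start with MS-275 and of 13081 bases with DMSO, where it ranked 5 of 26555 by width. At day 4 the peaks were 17790 and 18352 bases wide. No ATAC peak lay within 1 kb of the Meis2 start in either day 4 library, and one lay at −2797 to −2513 bases from it in the first and at −2800 to −2461 bases in the second, near the upstream end of the gene in RefSeq. The start of Meis1 was under an ATAC peak in both, with the authors' fold enrichment of 4.92 and 4.18. Pbx4 had the strongest ATAC peaks of the members, with fold enrichments of 12.7 and 11.2, and they ranked 1006 of 28422 and 2163 of 24446. At Pbx2 the H3K9ac peak over the start was 10289 bases wide with MS-275, where it ran past the gene's upstream side, and 3229 bases with DMSO. At day 4 it was 3608 and 4031 bases wide.

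**Figure D3:**
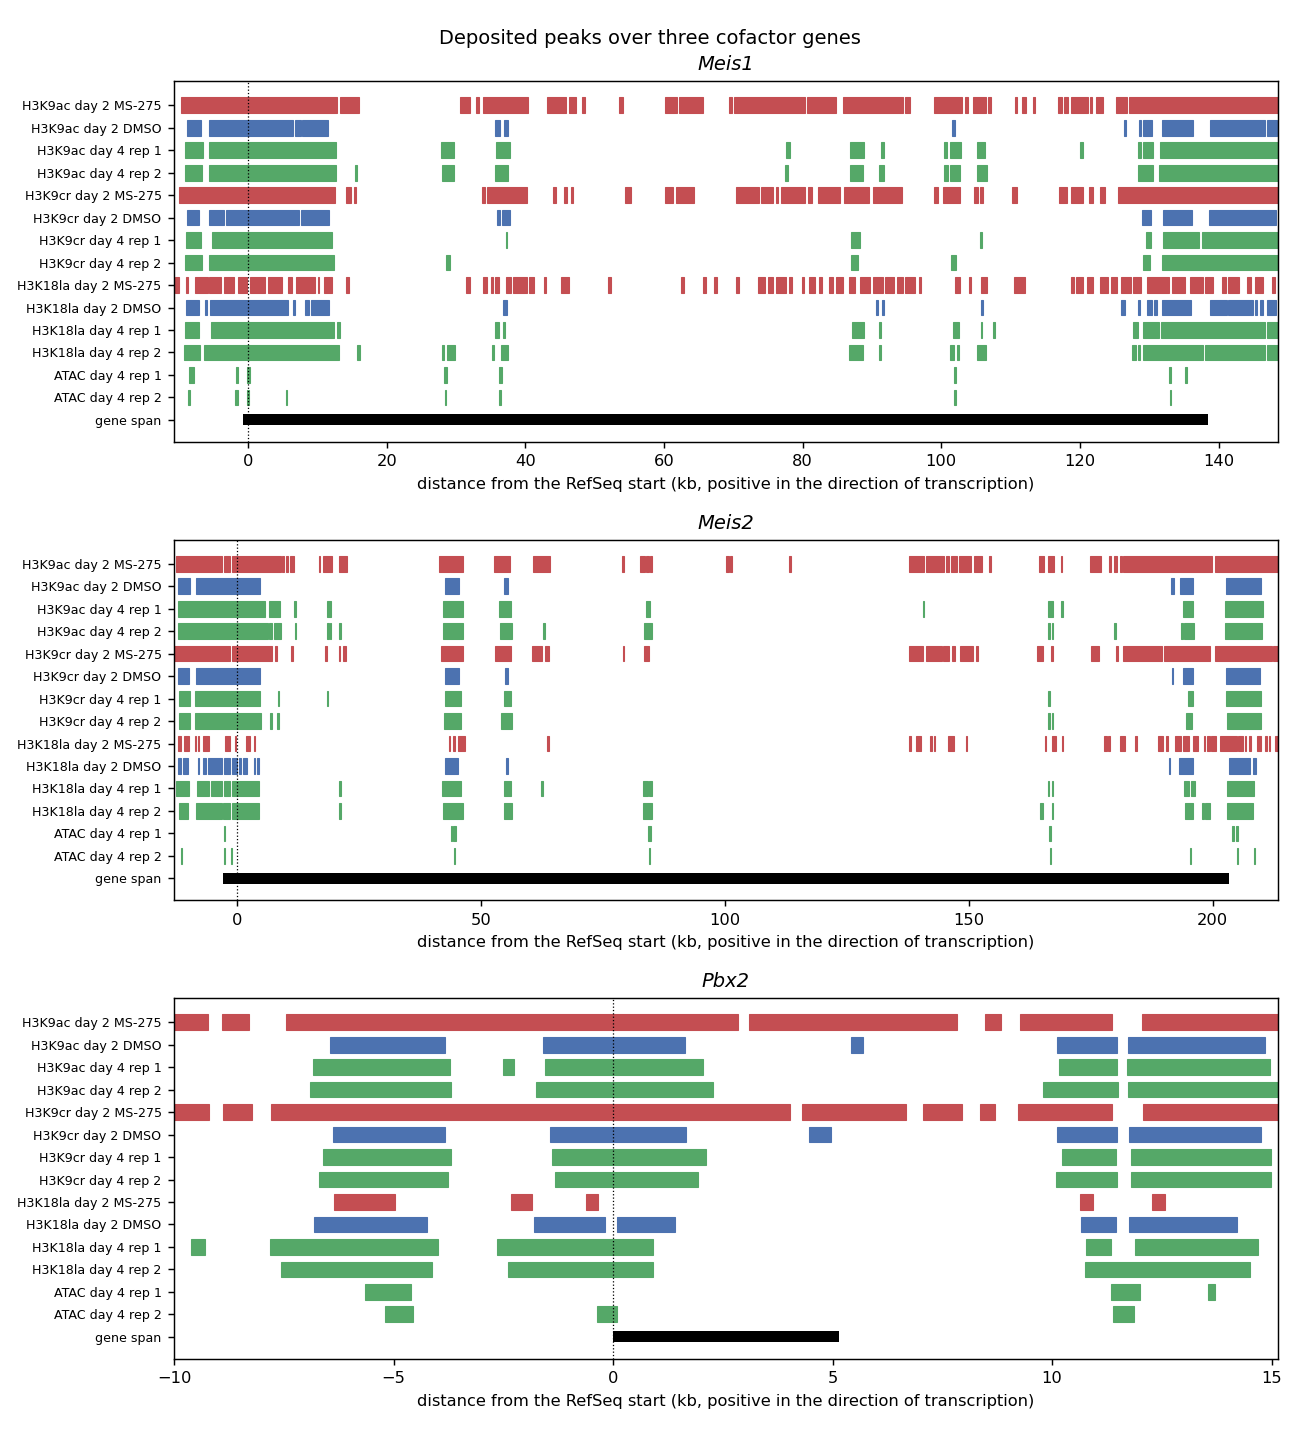
Deposited peaks over Meis1, Meis2 and Pbx2 by distance from the RefSeq start in kb, with 1 row a library and the gene span in black; MS-275 is red, DMSO blue and day 4 green. H3K18la over the inner part of Meis1 is called in many small peaks with MS-275 and in few with DMSO, and at Pbx2 the H3K18la peak nearest the start is narrow with MS-275 while H3K9ac and H3K9cr peaks are wide.

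Between MS-275 and DMSO the bases under peaks differed in opposite directions for the marks. The H3K9ac list had 84418 peaks with MS-275 and 26555 with DMSO, the H3K9cr list 70748 with MS-275 and 24874 with DMSO, and the H3K18la list 31577 with MS-275 and 36382 with DMSO. Covered bases were at least 2-fold larger with MS-275 at 5 members for H3K9ac, where 44.9% of genes with a peak were, and at 6 members for H3K9cr, where 40.5% were. At 0 members were they at least 2-fold smaller, where 0.537% of genes were for H3K9ac and 0.879% for H3K9cr. Pbx3 had the largest ratio of the members, with 44715 bases of H3K9ac with MS-275 and 5783 with DMSO (7.73-fold). Pknox2 had 64637 bases with MS-275 and 13154 with DMSO (4.91-fold), Meis2 73916 with MS-275 and 17011 with DMSO (4.345-fold), and Meis1 86911 with MS-275 and 21565 with DMSO (4.03-fold). The strongest H3K9ac and H3K9cr peaks of every member had a lower fold enrichment with MS-275 than with DMSO. For H3K9ac at Pbx3 it was 17.9 with MS-275 and 65.9 with DMSO. Over all peaks of the H3K9ac lists, the median was 4.73 with MS-275 and 13.8 with DMSO. Every member had more bases under H3K9ac and H3K9cr peaks with MS-275, including Pbx2 and Pknox2, whose RNA was lower with it.

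H3K18la went the other way at most genes and divided the members. Covered bases were at least 2-fold smaller with MS-275 at 3 members (Pbx2, Pbx4 and Pknox1), where 76.1% of genes with a peak were, and at least 2-fold larger at 2 members (Meis1 and Pbx3), where 4.99% were. Gene length was not matched in these shares either. Meis1 had 53 peaks over 53173 bases with MS-275 and 14 peaks over 19803 bases with DMSO (2.685-fold). Its peaks with MS-275 were narrower, at most 3083 bases wide, and none of them covered the start. Meis1 had the authors' fold enrichment of 9.02 at its strongest H3K18la peak with MS-275, rank 45 of 31577. With DMSO the strongest had 18.4, rank 492 of 36382. Pbx3 had 5464 bases with MS-275 and 2592 with DMSO, and Meis2 21909 with MS-275 and 12388 with DMSO. Pbx2 had 267 bases with MS-275 and 2163 with DMSO, and Pbx4 256 with MS-275 and 1326 with DMSO.

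**Figure D4:**
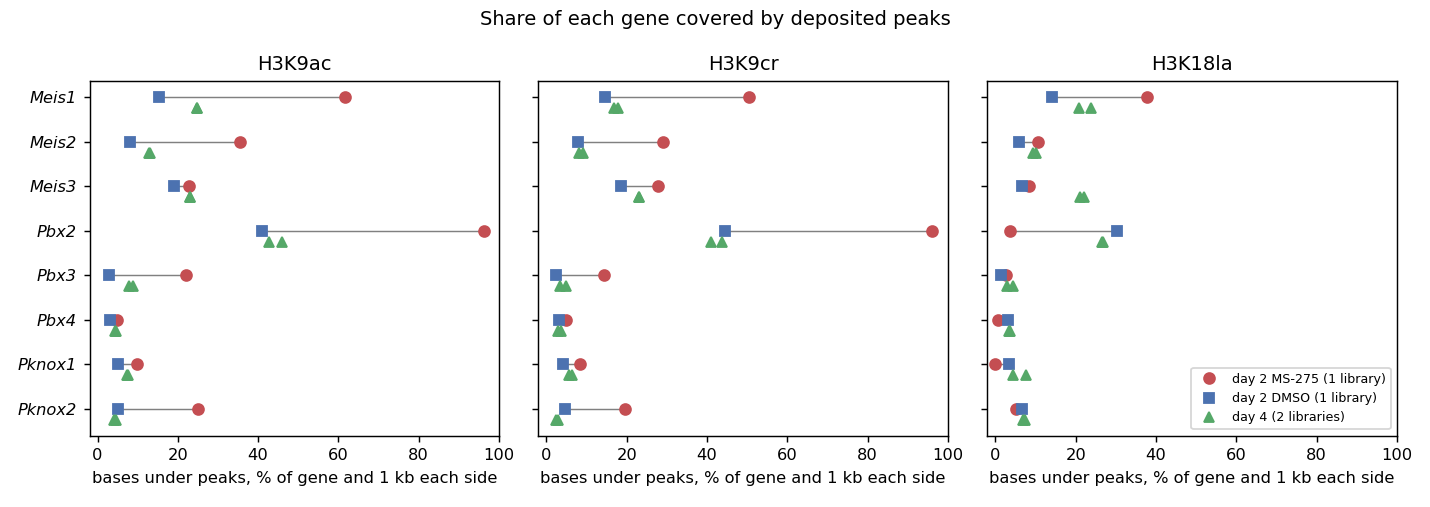
Percent of each gene and 1 kb on each side that lies under peaks (linear axis), by mark, with MS-275 in red circles, DMSO in blue squares and the 2 day 4 libraries in green triangles. MS-275 lies right of DMSO at all 8 members for H3K9ac and H3K9cr, while for H3K18la it lies left at Pbx2, Pbx4, Pknox1 and Pknox2.

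Covered bases at day 4 were also set against those with DMSO at day 2. The day 4 mean of 2 libraries was at least 2-fold above DMSO at 1 member for H3K9ac (Pbx3, 17014 against 5783 bases), where 14.0% of genes were, at 0 members for H3K9cr, where 7.59% were, and at 2 members for H3K18la (Meis3 and Pbx3), where 27.1% were. It was at least 2-fold below DMSO at 0 members for any of the 3 marks, where 1.05% of genes were for H3K9ac, 2.36% for H3K9cr and 8.05% for H3K18la. Meis3 had 3060 and 3190 bases under H3K18la peaks at day 4 and 973 with DMSO, and Pbx3 had 5732 and 8779 at day 4 and 2592 with DMSO. Both genes also had more RNA at day 4 than with DMSO, as did Meis1, Pbx4 and Pknox1, whose covered bases did not reach 2-fold. At Pknox2, whose RNA was lower at day 4, H3K9cr covered 6009 and 7487 bases at day 4 and 11645 with DMSO, and H3K18la 19068 and 17612 at day 4 and 17076 with DMSO.

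Some counts may hold reads of a neighbour. Meis1 overlaps the lncRNA Gm16141, Meis2 overlaps G630016G05Rik, and Pknox2 overlaps Gm34652 and Gm34538 in RefSeq. No source used here says whether the counting used strand, so reads from these overlapping genes could not be set apart.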

How the data were processed

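RNA was read from the authors' deposited estimated counts per gene, which carry no scaling between samples. The submitters' processing notes name Salmon 1.1.0, Bowtie2 2.4.1, MACS2 2.2.7.1, DESeq2 1.26.0 (its results were not used) and GRCm38. Annotation release, gene-level summing, caller settings and peak-calling controls are not given in the sources used here, and the 4 inputs were not used. Counts were rounded, and 54487 of 55385 identifiers matched a symbol. The 14 peak lists, 1 a library, have MACS2 columns per the file headers: the deposited pileup signal, −log10 p-value and q-value (lowest 2.00 to 2.02 a list) and fold enrichment, a ratio over local background.

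edgeR 4.0.16 (filterByExpr, TMM, quasi-likelihood F test, 1 fit over 10 libraries) tested 17789 genes; standard errors come from the fold change and F. The code was tested on simulated data. The 8 members, 5 lists of related genes, 8 marker lists and comparisons were chosen with earlier results of these data known, and 4 comparisons (those of MS-275 with days 0, 4 and 8, and of day 8 with DMSO) were added after the data were seen. Every member is named in the main comparisons, and the genes most like a member by Pearson r of CPM (not reported here for Pbx2). A peak belonged to a gene if it overlapped by 1 base its GRCm38.p6 RefSeq span widened by 1 kb (15548 tested genes had a span). Replicate libraries varied beyond counting error (chi-square over degrees of freedom 2.82 to 6.28), and p-values measure the spread between them. Alternatives were relative log expression (RLE) scaling, no filter, a replicate block, only the compared libraries, each library left out and DESeq2 1.42.0, and for peaks a stricter q-value, other windows and 50% overlap.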

Additional observations from a re-analysis of the deposited data

How the results depend on the processing

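Of the member fold changes recomputed under an alternative over 10 RNA comparisons, 685 kept their direction and side of the threshold, 28 fell short of the threshold, 3 newly passed and 4 changed sign. The sign changes were all uncalled values near 0: Meis1 for day 8 against DMSO gave 0.0096 with RLE scaling and 0.0069 with DESeq2, and Pknox2 for DMSO against day 0 gave 0.010 with no filter, and −0.10 to 0.085 when a library was left out, the higher value without the second day 0 library. The count of members called for day 8 against day 4, 5 in the fit of all 10 libraries, was 3 with DESeq2 and 3 to 4 when a library was left out, with 3 without either day 4 library. For MS-275 against DMSO the count was 5 to 7 when a library was left out. The replicate numbers did not pair the libraries (correlations of same-numbered deviations from −0.0306 to 0.0378). With the replicate number as a block, Pbx4 for MS-275 against DMSO was 0.39 (edgeR adjusted p = 0.054), and it was the member whose call changed. RLE scaling moved the median of all genes by at most 0.041 in size. For H3K18la with MS-275, 5 members had a peak at a −log10 q-value of at least 5 (25.8% of genes) and 5 with a window of 0 kb (33.6% of genes), against 7 (41.9% of genes). Depth limits Pbx4, with 80 to 190 counts a library, and the peak lists carry no read depth.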
